A study of Mus musculus with 25 samples.

Results

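mmu-mir-146a, mmu-mir-146b, mmu-mir-155 and mmu-mir-21a are the mouse precursors of 3 microRNA (miRNA) families known to be induced during inflammation. They were taken by name from the deposited table of reads per precursor hairpin, where they are 4 of 1193 rows, and all 4 passed the filter on low counts that left 425 precursors for testing. The table covers one tissue, the brain hemisphere, of males of the inbred strain C57BL/6. Mice were 2, 9, 15, 24 or 30 months old, and each of these 5 ages is represented by 5 of the 25 libraries. The labels name no treatment, mutation or transgene, so the groups differ by age alone as far as they say, and the titles give each library its own animal number. Total counts per library ran from 3.78 to 9.52 M reads (mega-reads), with a median of 5.61 M.

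A miRNA precursor is a short hairpin that is cut into a 5p and a 3p mature strand of some 22 bases, and the mature strand represses messenger RNAs that pair with its seed, bases 2 to 8 from its 5′ end. miR-146a and miR-155 are transcribed in response to NF-κB after Toll-like receptor or cytokine signals. miR-146 represses the signalling adaptors TRAF6 and IRAK1 and so damps the response, while miR-155 represses inhibitors such as SOCS1 and SHIP1 and so prolongs it. miR-21 is induced by STAT3 and AP-1, represses PDCD4, and in the brain is made by glia and vessel cells as well as by leukocytes.

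The 5p strands are shown first, because their seeds decide which members can share targets. They are RefSeq sequences of build GRCm38.p6, printed 5′ to 3′ with the seed in capitals.
mmu-miR-146a-5p: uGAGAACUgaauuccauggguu
mmu-miR-146b-5p: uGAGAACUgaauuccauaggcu
mmu-miR-155-5p: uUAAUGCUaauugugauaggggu
mmu-miR-21a-5p: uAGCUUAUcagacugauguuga
miR-146a-5p and miR-146b-5p have the same seed and the same length of 22 bases. They differ by 2 substitutions, G18A and U21C, counted from the 5′ end with the base of miR-146a-5p first. No other mature mouse miRNA of the RefSeq table shares that seed, and none shares the seed of miR-155-5p. mmu-miR-21c shares the seed of miR-21a-5p, but its precursor mmu-mir-21c had 0 reads in all 25 libraries, as did mmu-mir-21b.

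The 3p strands separate the miR-146 pair more clearly, since their seeds differ, and they are shown in the same way.
mmu-miR-146a-3p: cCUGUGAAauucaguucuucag
mmu-miR-146b-3p: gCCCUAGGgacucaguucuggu
mmu-miR-155-3p: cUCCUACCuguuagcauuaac
mmu-miR-21a-3p: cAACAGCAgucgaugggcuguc
The hairpins of the 3 immune-regulated loci are given with both mature strands in capitals, because a hairpin is what the table counts and reads of the 2 arms are pooled in it.
Mir146: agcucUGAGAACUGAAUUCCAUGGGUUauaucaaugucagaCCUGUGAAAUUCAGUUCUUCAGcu
Mir146b: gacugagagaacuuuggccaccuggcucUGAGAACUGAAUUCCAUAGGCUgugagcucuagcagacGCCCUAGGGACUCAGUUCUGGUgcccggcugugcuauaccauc
Mir155: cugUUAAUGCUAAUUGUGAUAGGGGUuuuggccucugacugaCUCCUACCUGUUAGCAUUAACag

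In the GENCODE annotation of GRCm38, Mir146 lies on the minus strand at chr11:43374397-43374461 and overlaps no other annotated gene. Mir146b lies on the plus strand at chr19:46342762-46342870, in an intron of the protein-coding gene Mfsd13a. Mir155 lies on the plus strand at chr16:84714140-84714204, in an exon of its non-coding host gene Mir155hg. Mir21a lies on the minus strand at chr11:86584067-86584158, in the untranslated part of an exon of Vmp1, which encodes a membrane protein of autophagy. The build to which the authors aligned is not given in the sources used here, so these positions describe the genes and not the deposited rows.

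All 4 precursors were higher at 30 than at 2 months. mmu-mir-155 rose 2.62-fold, mmu-mir-146a 1.99-fold, mmu-mir-146b 1.39-fold and mmu-mir-21a 1.38-fold (edgeR's quasi-likelihood test with Benjamini-Hochberg adjustment over the 425 precursors, threshold 0.05, 5 libraries at each age). Of all tested precursors, 36.9% passed this test in either direction and 19.1% were higher at 30 months, so 4 of 4 members stand against a background of about 1 in 5. The members were chosen with earlier results of these data known, so this contrast is a description and not a test. The members' log2 fold changes ran from 0.47 to 1.39, beside a median of 0.05 over all 425 tested precursors. The brain was measured as a whole, so a change in the number of cells of a type and a change in RNA per cell cannot be told apart.

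mmu-mir-146a, the NF-κB-driven brake on Toll-like receptor signalling, had a mean of 119 ± 21.0 CPM in the 2-month group and of 236 ± 25.2 CPM in the 30-month group (CPM, reads per mega-read after library scaling, ± SD, n = 5). The libraries at 2 months held 95.5, 149.6, 123.7, 103.4 and 122.4 CPM, and those at 30 months 218.5, 275.4, 236.3, 241.7 and 210.4 CPM. The lowest 30-month library therefore lay above the highest 2-month library. The libraries between held 111.7, 113.2, 111.9, 158.7 and 144.4 CPM at 9 months, 151.1, 158.6, 129.2, 147.0 and 140.4 CPM at 15 months, and 236.1, 185.0, 178.9, 145.3 and 189.7 CPM at 24 months. At 24 months 4 of 5 libraries exceeded every 2-month library. The log2 fold change from 2 to 30 months was 0.99 ± 0.13 (SE, adjusted p = 3.90e-06 by edgeR), the 7th largest rise of the 425 precursors.

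mmu-mir-146b, which yields the near-identical mature strand from another chromosome, was more abundant and changed less. Its libraries held 714, 1117, 1134, 938 and 1048 CPM at 2 months and 1246, 1613, 1511, 1444 and 1090 CPM at 30 months. The 2 ages overlapped: 4 of the 5 libraries at 30 months lay above every 2-month library, and the remaining one lay below 2 of them. The ages between held 1112, 1116, 1058, 1416 and 1427 CPM at 9 months, 1354, 1487, 921, 1183 and 1275 CPM at 15 months, and 1299, 1294, 1299, 984.3 and 1433 CPM at 24 months. The log2 fold change from 2 to 30 months was 0.48 ± 0.14 (adjusted p = 0.00934 by edgeR), the 39th largest rise. This call was lost when 2-month replicate 1 was left out (log2 fold change 0.34), when 30-month replicate 2 was left out (0.38) and when 30-month replicate 3 was left out (0.41).

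mmu-mir-155, which comes from the Mir155hg transcript and is strongly induced in activated myeloid and lymphoid cells, was the rarest member. Its libraries held 15 to 111 reads each. In CPM, the 2-month libraries held 4.63, 5.07, 3.78, 4.47 and 3.18, and the 30-month libraries 11.1, 13.3, 6.87, 14.8 and 9.53. Every 30-month library exceeded every 2-month library. The ages between held 7.65, 5.19, 6.44, 3.93 and 3.04 CPM at 9 months, 5.09, 5.45, 5.39, 7.58 and 5.13 CPM at 15 months, and 17.8, 8.43, 7.77, 6.88 and 8.87 CPM at 24 months. The highest library of all was thus 24-month replicate 1 and not a 30-month library.

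The log2 fold change of mmu-mir-155 from 2 to 30 months was 1.39 ± 0.26 (adjusted p = 2.25e-04 by edgeR), the 3rd largest rise of the 425 precursors. Its spread between animals at 2 months, a coefficient of variation of 17.6%, was no wider than the 21.0% that counting so few reads gives by itself. At 30 months the spread was 27.9% against 12.5% from counting. Differences between single animals of the youngest group were therefore not detectable at this depth. The reads carry no molecular identifiers, so these counting errors are the least that the data allow.

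mmu-mir-21a, a miRNA of glial, vascular and immune cells, was the most abundant member and had the tightest replicates. Its 2-month libraries held 3117, 3450, 3404, 3212 and 3053 CPM, and its 30-month libraries 4346, 4860, 4133, 4832 and 4251 CPM. The groups did not overlap. The ages between held 3818, 3371, 3584, 3735 and 3586 CPM at 9 months, 3678, 3730, 3119, 3720 and 3756 CPM at 15 months, and 4430, 3818, 4218, 3298 and 4150 CPM at 24 months. The log2 fold change from 2 to 30 months was 0.47 ± 0.07 (adjusted p = 1.34e-05 by edgeR), the 43rd largest rise. Its size was close to that of mmu-mir-146b, with an SE of 0.07 beside 0.14.

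**Figure D1:**
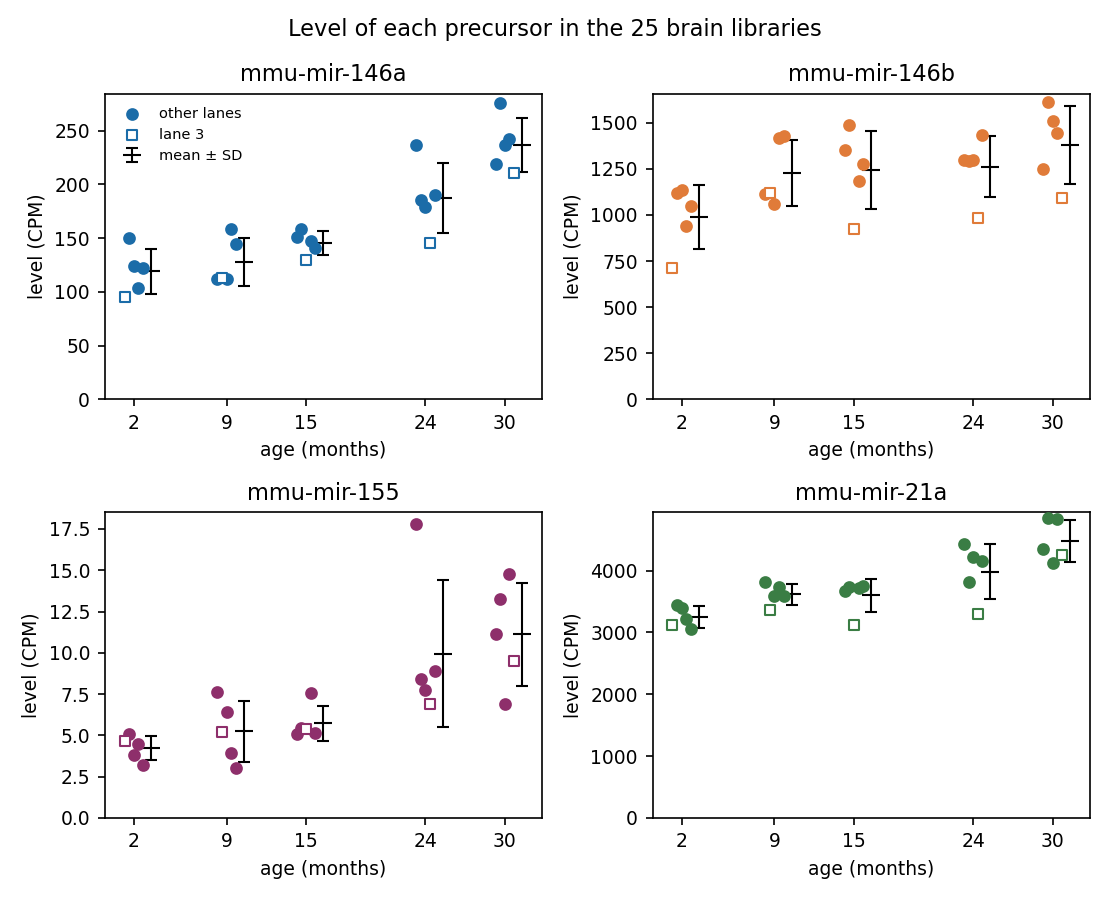
Level of each precursor in CPM (vertical axis, from 0) against age in months for the 25 libraries. Each point is 1 library, open squares are the 5 libraries of sequencing lane 3, and bars give the mean ± SD of 5 libraries. For mmu-mir-146a, mmu-mir-155 and mmu-mir-21a every 30-month point lies above every 2-month point, while mmu-mir-146b overlaps.

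No overlap between the 30-month and 2-month libraries, with 30 months above, was seen for 3 of the 4 members and for 10.4% of all tested precursors. By mean level over all libraries the members ranked 51st (mmu-mir-21a, 3787 CPM), 93rd (mmu-mir-146b, 1221 CPM), 194th (mmu-mir-146a, 163 CPM) and 333rd (mmu-mir-155, 7.25 CPM) of the 425. Ligation of adapters favours some small RNAs over others, so this order of reads need not be the order of molecules. The 2 members that rose most were the 2 with the fewest reads.

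**Figure D2:**
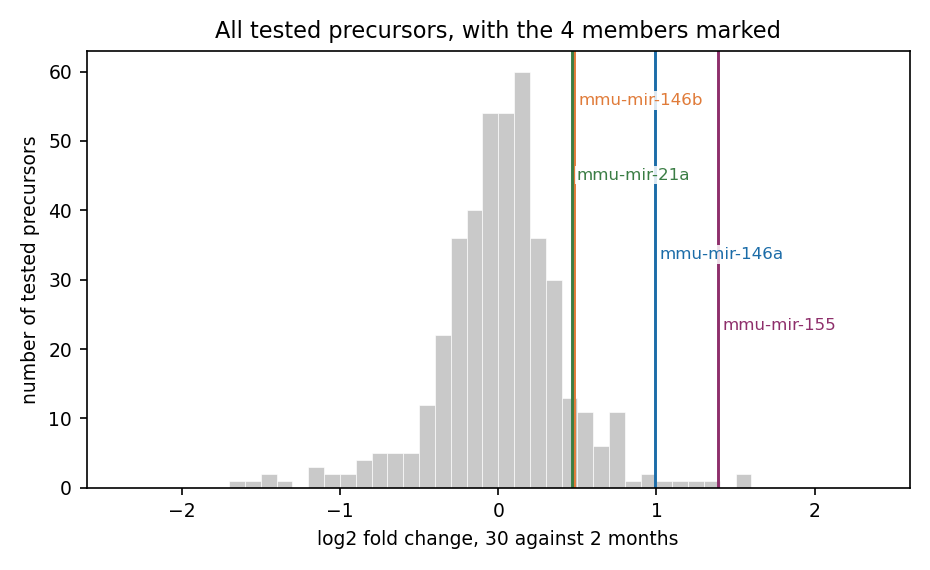
Number of tested precursors (vertical axis) in each bin of 0.1 of the log2 fold change from 2 to 30 months (horizontal axis), for all 425, with a line at each member. mmu-mir-146b and mmu-mir-21a lie side by side on the right shoulder of the distribution, and mmu-mir-146a and mmu-mir-155 in its right tail.

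The ages between place the change. No member passed the test between 2 and 9 months, where 1.88% of precursors were higher at 9 months, or between 2 and 15 months, where 6.82% were higher at 15 months. The fitted log2 differences from 2 to 15 months were nevertheless above 0 for all 4, at 0.29 ± 0.13 for mmu-mir-146a, 0.33 ± 0.14 for mmu-mir-146b, 0.46 ± 0.28 for mmu-mir-155 and 0.15 ± 0.07 for mmu-mir-21a (SE). For mmu-mir-155 the adjusted p was 0.268 by edgeR. Its lowest 15-month library held 5.09 CPM (20 reads) and its highest 2-month library 5.07 CPM (25 reads). Counting alone gives these 2 libraries 95% ranges of 3.11 to 7.86 and 3.28 to 7.48 CPM, so no separation of the ages is read from them.

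Some of these misses depended on the sequencing lane, which the column names of the table give. With lane as a covariate, mmu-mir-146b passed between 2 and 9 months (0.33, adjusted p = 0.0395 by edgeR). Between 2 and 15 months mmu-mir-146a (adjusted p = 0.0375), mmu-mir-146b (0.0184) and mmu-mir-21a (0.0320) then passed as well. mmu-mir-146b and mmu-mir-21a also passed there without the lane 3 libraries (adjusted p = 0.0321 and 0.0228) and without 15-month replicate 3 alone (0.0324 and 0.0393, all by edgeR). mmu-mir-155 stayed uncalled at 9 and at 15 against 2 months in every alternative fit that tested it. So did mmu-mir-146a and mmu-mir-21a at 9 against 2 months. With lane in the fit, 19 precursors in all were higher at 9 than at 2 months and 53 at 15 than at 2 months, beside 8 and 29 without it.

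By 24 months 3 of the 4 members exceeded their 2-month level, against 11.1% of precursors higher at 24 months. mmu-mir-155 was higher by 1.23 ± 0.26 on the log2 scale (adjusted p = 0.00148 by edgeR). That difference was 0.90 (adjusted p = 0.00667 by edgeR) without 24-month replicate 1, the highest library. mmu-mir-146a was higher by 0.65 ± 0.13 (adjusted p = 8.20e-04) and mmu-mir-21a by 0.29 ± 0.07 (adjusted p = 0.00285), while mmu-mir-146b gave 0.35 ± 0.14 and did not pass (adjusted p = 0.0716, all by edgeR). The latter passed with lane as a covariate (0.36, adjusted p = 0.0102), without lane 3 (0.33, adjusted p = 0.0273) and without 24-month replicate 4 (0.43, adjusted p = 0.0317, all by edgeR).

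The step within the second part of life was seen for the same 3 precursors. At 30 against 15 months, where 10.1% of precursors were higher, mmu-mir-146a rose by 0.70 ± 0.13 (adjusted p = 8.52e-04), mmu-mir-155 by 0.93 ± 0.25 (adjusted p = 0.0155) and mmu-mir-21a by 0.32 ± 0.07 (adjusted p = 0.00309, all by edgeR). mmu-mir-146b gave 0.15 ± 0.14 (adjusted p = 0.545 by edgeR). The call of mmu-mir-155 was lost without 30-month replicate 4 (0.78, adjusted p = 0.0590 by edgeR). At 30 against 9 months, where 13.2% were higher, the same 3 passed, with 0.89, 1.07 and 0.31 on the log2 scale, and mmu-mir-146b gave 0.17 (adjusted p = 0.394 by edgeR). Of the rise of mmu-mir-146b from 2 to 30 months, 0.31 ± 0.14 of 0.48 was already present in the fitted level at 9 months, although that first step passed with lane as a covariate and not without it (adjusted p = 0.188 by edgeR). These comparisons share libraries and are not independent of one another.

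Without a term for lane, no step between neighbouring ages passed for any member. The test called no precursor higher, 0% of the 425, between 9 and 15 or between 15 and 24 months, and also 0% between 9 and 24 months. At an unadjusted p under 0.05, 8, 31 and 34 precursors were higher in these 3 comparisons, and DESeq2 called 1, 1 and 4 higher. Between 24 and 30 months 6.12% were higher, and the members gave 0.34 ± 0.13 for mmu-mir-146a (adjusted p = 0.106), 0.13 ± 0.14 for mmu-mir-146b (0.646), 0.15 ± 0.24 for mmu-mir-155 (0.764) and 0.17 ± 0.07 for mmu-mir-21a (0.126, all adjusted p by edgeR). With lane as a covariate, mmu-mir-146a (0.35, adjusted p = 0.0438) and mmu-mir-21a (0.18, adjusted p = 0.0155, both by edgeR) passed between 24 and 30 months.

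Between 9 and 24 months mmu-mir-146a lay at the threshold, with 0.55 ± 0.13 and an adjusted p of 0.0509 by edgeR. It stayed uncalled in 3 of 8 alternatives and passed in the others, with adjusted p = 0.0459 under RLE scaling, 0.0378 under the stricter filter, 0.00583 by DESeq2, 0.0125 with lane as a covariate and 0.0437 without lane 3. Of the 25 fits that left out 1 library, 20 left it uncalled, and it passed without 2-month replicate 1 or 2, 9-month replicate 4, 24-month replicate 4 or 30-month replicate 2. mmu-mir-155 gave 0.92 ± 0.26 there (adjusted p = 0.0999 by edgeR) and passed by DESeq2 (0.0290) and with lane as a covariate (0.0328).

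A straight line in age also put mmu-mir-155 first and mmu-mir-146a second among the members, while mmu-mir-21a and mmu-mir-146b, close to each other in both, changed places. Each member rose on it, against 20.2% of precursors with a rising slope. The slope of mmu-mir-155 was 0.63 ± 0.10 on the log2 scale per 12 months (SE, adjusted p = 2.28e-05 by edgeR), the steepest of the 425 precursors. That of mmu-mir-146a was 0.43 ± 0.05 (adjusted p = 5.92e-07 by edgeR) and ranked 6th. mmu-mir-21a and mmu-mir-146b followed with 0.18 ± 0.03 (adjusted p = 8.88e-06) and 0.17 ± 0.05 (adjusted p = 0.0157, both by edgeR).

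The slope of mmu-mir-146b lost its call without 2-month replicate 1, 30-month replicate 2 or 30-month replicate 3, the same libraries on which its 30-month difference rested. A departure of the age means from the line was not detected for any member, with adjusted p from 0.598 to 0.826 by edgeR, while 7.06% of precursors showed one.

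**Figure D3:**
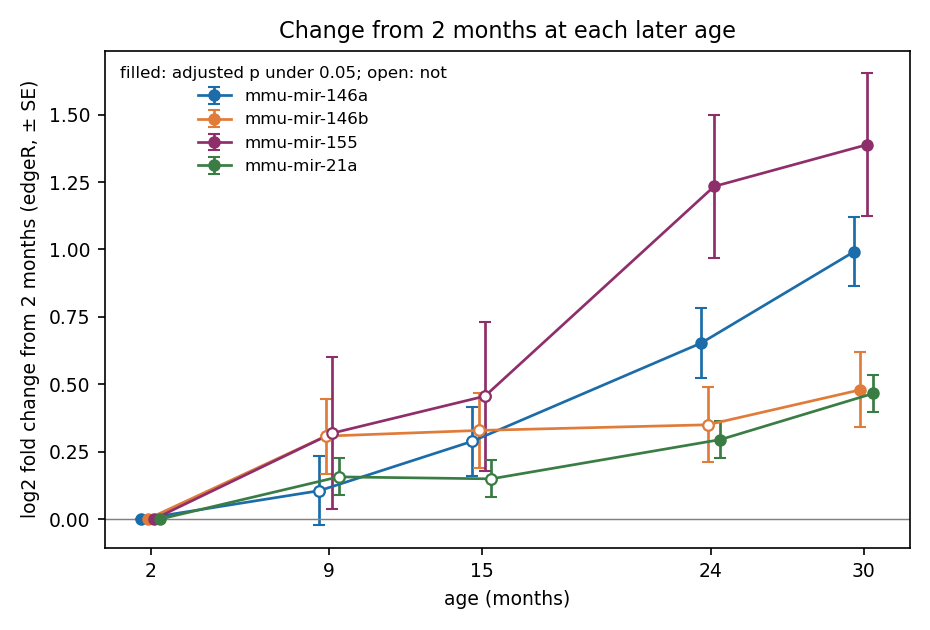
Fitted log2 fold change from 2 months (vertical axis, edgeR, bars ± SE) at each later age in months (horizontal axis) for the 4 precursors. Filled points passed at an adjusted p under 0.05 and open points did not, and the 2-month point is 0 by definition. mmu-mir-155 and mmu-mir-146a pull away from the other 2 by 24 months.

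Ratios between members inside a library do not depend on how libraries are scaled, and they asked whether the members moved by different amounts. Of the reads of the miR-146 pair, mmu-mir-146a held 11.8, 11.8, 9.84, 9.93 and 10.5% in the libraries at 2 months and 14.9, 14.6, 13.5, 14.3 and 16.2% at 30 months. Its share rose from 10.8 ± 0.977% to 14.7 ± 0.971% (SD, n = 5), and the 2 ages did not overlap. The means between were 9.43 ± 0.399% at 9 months, 10.6 ± 1.10% at 15 months and 12.9 ± 1.45% at 24 months, so the share was not above its 2-month mean until 24 months.

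On the log2 scale the ratio of mmu-mir-146a to mmu-mir-146b rose by 0.52 ± 0.08 from 2 to 30 months (SE). The exact two-sided permutation test over all divisions of the 10 libraries into 5 and 5 gave p = 0.00794, the smallest this design allows, and 0.0159 after adjustment over the 6 pairs of members. The same p was found for mmu-mir-146a over mmu-mir-21a, which rose by 0.54 ± 0.10, and for mmu-mir-155 over mmu-mir-21a, which rose by 0.88 ± 0.18. mmu-mir-155 over mmu-mir-146b rose by 0.86 ± 0.28 (exact permutation, adjusted p = 0.0476), a call that was kept in 2 of the 10 repeats that left out 1 library.

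mmu-mir-155 over mmu-mir-146a gave 0.34 ± 0.24 (exact permutation, adjusted p = 0.238), and mmu-mir-146b over mmu-mir-21a gave 0.02 ± 0.14 (adjusted p = 0.913). The members thus fell into a faster pair, mmu-mir-155 and mmu-mir-146a, and a slower pair, mmu-mir-146b and mmu-mir-21a, with no difference detected within either pair. A miss at this size of sample does not show that the members of a pair moved alike.

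Because the 5p strands of the miR-146 pair differ by 2 bases, how the authors assigned reads could move counts from one to the other. That assignment is not given in the sources used here. With both precursors summed before the fit, the pair rose by 0.53 ± 0.14 from 2 to 30 months (adjusted p = 0.00557 by edgeR), near the value of mmu-mir-146b, which holds most of the reads.

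**Figure D4:**
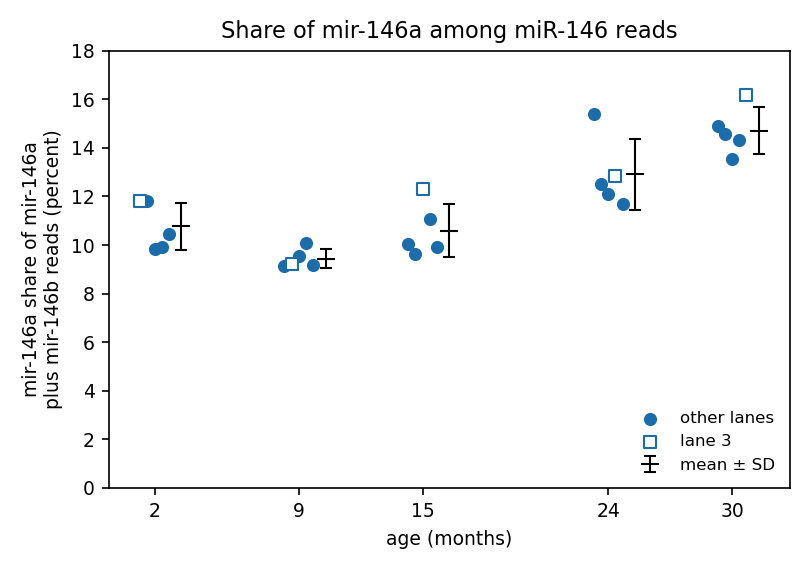
Share of mmu-mir-146a among the reads of mmu-mir-146a plus mmu-mir-146b in percent (vertical axis, from 0) against age in months, 1 point per library, open squares for sequencing lane 3, bars for the mean ± SD of 5 libraries. The 5 libraries at 30 months, from 13.5 to 16.2%, all lie above the 2-month libraries, from 9.84 to 11.8%.

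The column names of the table carry 6 sequencing lanes, and lane 3, with 1 library of each age, held on average the lowest levels of the miR-146 pair. Its libraries lay below the mean of their age by 0.33 for mmu-mir-146b, 0.23 for mmu-mir-146a, 0.14 for mmu-mir-21a and 0.09 for mmu-mir-155 on the log2 scale, on average over the 5 ages. Lanes 3, 5, 6 and 7 held both a 2-month and a 30-month library, 1 of each. Within them the log2 difference between 30 and 2 months was 1.14, 0.82, 1.41 and 0.95 for mmu-mir-146a and 0.97, 1.44, 1.47 and 1.0 for mmu-mir-155. It was 0.45, 0.35, 0.60 and 0.44 for mmu-mir-21a and 0.61, 0.14, 0.78 and 0.53 for mmu-mir-146b. Every one of these differences was above 0, and the smallest was that of mmu-mir-146b in lane 5.

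Animals of 1 age also differed together in some members. After the mean of each age was subtracted from log2 CPM, mmu-mir-146a and mmu-mir-146b correlated over the 25 libraries with Pearson's r = 0.81 (permutation within ages, p = 1e-05, the smallest that 100000 resamples can give; adjusted p = 6e-05 over 6 pairs) and Spearman's rho = 0.86 (permutation, adjusted p = 1.2e-04). Without the 2 libraries farthest from the median of mmu-mir-146a r was 0.86, after lane was also subtracted it was 0.71, and without lane 3 it was 0.74. The pair that shares a seed therefore varied together between animals of 1 age, while its ratio moved with age. Such variation was not particular to the pair. Of the precursors named below as most like mmu-mir-146b, within-age r with it was 0.86 for mmu-mir-218-2, 0.76 for mmu-mir-24-2, 0.75 for mmu-mir-3074-2 and 0.73 for mmu-mir-384. For those most like mmu-mir-146a it ran from 0.53 to 0.66.

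mmu-mir-21a correlated with mmu-mir-146a (r = 0.64, rho = 0.57, adjusted permutation p = 0.00336 and 0.0165) and with mmu-mir-146b (r = 0.63, rho = 0.51, adjusted permutation p = 0.0049 and 0.027). Without the 2 libraries farthest from the median of the first-named miR-146 precursor, r was 0.50 and 0.54. Spearman's rho was then 0.46 and 0.49 and did not pass (adjusted permutation p = 0.0846 for each). Both rested in part on lane 3: without it r was 0.42 (adjusted permutation p = 0.165) and 0.20 (0.523), and after lane was subtracted 0.49 (0.0432) and 0.29 (0.198). By Spearman's rho neither passed after lane was subtracted, at 0.50 (adjusted permutation p = 0.0549) and 0.33 (0.162).

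mmu-mir-155 correlated with mmu-mir-21a (r = 0.54, rho = 0.50, adjusted permutation p = 0.0275 and 0.0315). Without the 2 libraries farthest from the median of mmu-mir-155 the relation no longer passed (r = 0.40, adjusted permutation p = 0.0726), so its call, though not its sign, depended on those libraries. Subtracting lane left r at 0.50 (adjusted permutation p = 0.0432), and leaving lane 3 out gave 0.64 (0.0271). Spearman's rho passed in none of these repeats. It was 0.42 without the 2 farthest libraries (adjusted permutation p = 0.0981), 0.43 with lane subtracted (0.0924) and 0.54 without lane 3 (0.114). With mmu-mir-146a the r of mmu-mir-155 was 0.12 (rho = -0.02, adjusted permutation p = 0.637 and 0.948) and with mmu-mir-146b -0.14 (rho = -0.20, 0.625 and 0.443). The 2 fastest risers with age were thus not detectably linked among animals of 1 age, with the counting error of mmu-mir-155 given above.

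**Figure D5:**
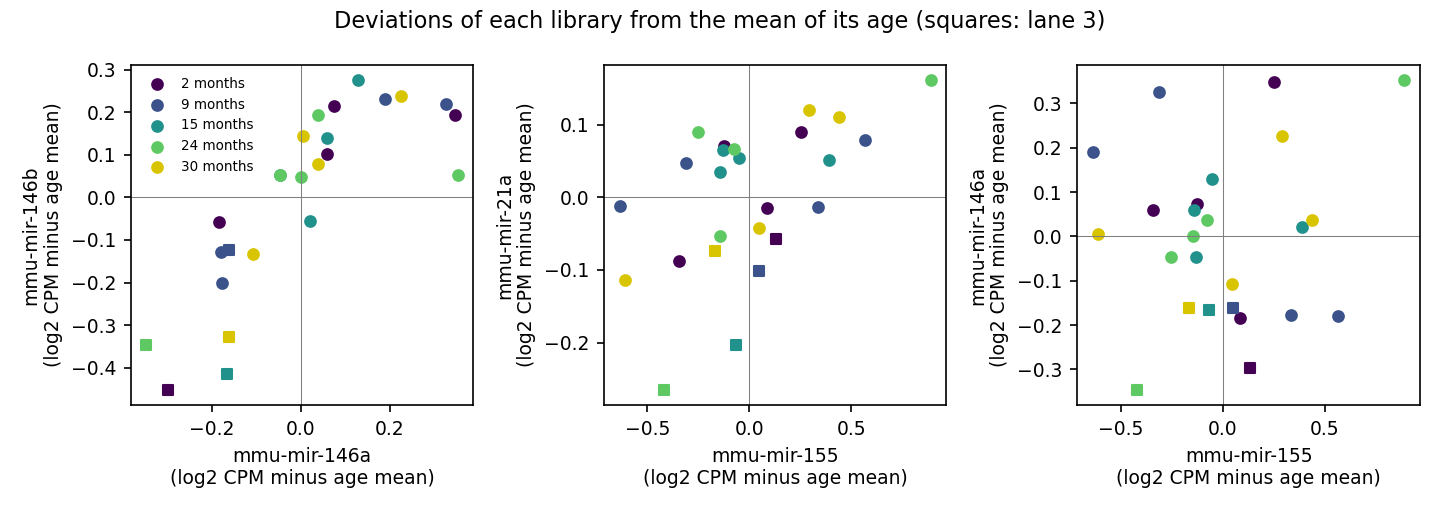
Log2 CPM of 1 library minus the mean of its age, for mmu-mir-146b against mmu-mir-146a (left, r = 0.81), mmu-mir-21a against mmu-mir-155 (middle, r = 0.54) and mmu-mir-146a against mmu-mir-155 (right, r = 0.12). Points are the 25 libraries coloured by age, and squares are lane 3, which sits at the lower left of the miR-146 plot.

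The precursors whose log2 CPM followed each member most closely over the 25 libraries are given as a description, among tested precursors whose mean level reached 10 CPM. All share the libraries and the scaling, and age runs through every r. For mmu-mir-146a they were mmu-mir-21a (r = 0.88), mmu-mir-3065 (0.88), mmu-mir-338 (0.87) and mmu-mir-344d-3 (0.86). For mmu-mir-21a they were mmu-mir-3065 (0.92), mmu-mir-338 (0.90), mmu-mir-146a (0.88) and mmu-mir-93 (0.88). mmu-mir-338 is enriched in oligodendrocytes, the myelin-forming glia, and mmu-mir-3065 overlaps it on the opposite strand, so without a stated use of strand their reads cannot be told apart. Their means over all libraries were 2173 and 2175 CPM, so the 2 rows may hold largely the same reads and are not separate evidence.

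mmu-mir-155 was most like mmu-mir-210, a miRNA induced by hypoxia (r = 0.85), then mmu-mir-21a (0.82), mmu-mir-3065 (0.82) and mmu-mir-338 (0.81). mmu-mir-146b had another set: mmu-mir-3074-2 (0.84), mmu-mir-24-2 (0.83), mmu-mir-218-2 (0.80) and mmu-mir-384 (0.79), the first of which overlaps the second on the opposite strand. Of those 4, mmu-mir-24-2 and mmu-mir-218-2 did not pass between 30 and 2 months, with log2 fold changes of 0.18 ± 0.07 (adjusted p = 0.0579) and 0.14 ± 0.09 (adjusted p = 0.239, both by edgeR). The r of mmu-mir-146b with mmu-mir-155 was 0.33, and with mmu-mir-146a and mmu-mir-21a 0.73 and 0.72.

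Other miRNAs tied to NF-κB, Toll-like receptor or cytokine signalling moved in both directions. Of 33 such precursors, all tested, 9 were higher and 6 lower at 30 than at 2 months and 18 did not pass, with a median log2 fold change of 0.09. Over all 425 precursors 81 were higher and 76 lower, with a median of 0.05. With upper-quartile scaling 5 of the 33 were higher, and over all tested precursors 50 were higher and 91 lower. Without 2-month replicate 3 also 5 of the 33 were higher.

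The largest rise of the list was mmu-mir-10a, an endothelial inhibitor of NF-κB activation, from 257 ± 76.0 to 546 ± 86.5 CPM (log2 fold change 1.09 ± 0.17, adjusted p = 2.21e-05 by edgeR). mmu-mir-210 rose by 0.61 ± 0.09 and mmu-mir-203, which represses SOCS3 in skin, by 0.56 ± 0.08. mmu-mir-142a, which is also in the leukocyte marker list below, rose by 0.39, mmu-mir-181b-1 and mmu-mir-181b-2 by 0.36 and 0.34, mmu-mir-187 by 0.32, mmu-mir-27b by 0.27 and mmu-mir-221 by 0.17. In the 25 fits that left out 1 library, mmu-mir-27b kept its call in 9 and mmu-mir-221 in 12, while mmu-mir-187 and mmu-mir-142a kept theirs in 23. The 2 mir-181b precursors yield the same mature strand and may share reads.

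Those that fell include the CREB-driven pair mmu-mir-132 and mmu-mir-212, which in neurons follow activity and in macrophages follow Toll-like receptor signals. They fell by 0.34 ± 0.06 and 0.48 ± 0.06 on the log2 scale. mmu-mir-150 of lymphocytes fell by 0.50 ± 0.07, mmu-mir-99b by 0.27, mmu-mir-181d by 0.25 and mmu-mir-181c by 0.17. Of the list's precursors that missed the threshold, mmu-mir-147 (0.43 ± 0.26), mmu-let-7e (0.23 ± 0.10) and mmu-mir-34a (0.19 ± 0.09) had the largest fitted changes.

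Markers of cell types were read beside the members. Neuronal precursors (mir-124, mir-9 and mir-128) summed to at least 58840 CPM in every library, and liver and muscle precursors to between 14.1 and 23.5 CPM. Of the neuronal list mmu-mir-128-1 and mmu-mir-128-2 fell by 0.37 and 0.35 on the log2 scale, and of the liver and muscle list none was called. There 1 precursor was lower under RLE or upper-quartile scaling, with 2 ages alone in the fit and with only 2-month replicates 3 to 5. All but 9 of the 25 fits that left out 1 library also called 1 lower. Nearest to the threshold in the main fit was mmu-mir-1a-1 (-0.50, adjusted p = 0.0536 by edgeR). The 4 leukocyte precursors summed to 1383 to 1524 CPM at 2 months and 1231 to 1520 CPM at 30 months. Of these, mmu-mir-142a and mmu-mir-142b, opposite strands of 1 locus, were higher, mmu-mir-150 was lower and mmu-mir-223 of granulocytes gave 0.14 ± 0.20 (adjusted p = 0.629 by edgeR). The 2 mir-142 precursors had means of 315 and 318 CPM, may hold largely the same reads, and both enter the sum. The 2 higher calls were lost with upper-quartile scaling and when 2-month replicate 3 or 30-month replicate 5 was left out, and 1 of them was lost without 30-month replicate 2.

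All 4 oligodendrocyte precursors were higher at 30 months, with sums of 2619 to 3046 CPM at 2 months and 3921 to 5014 CPM at 30 months. Erythroid precursors summed to 2068 to 3493 CPM and 2522 to 4999 CPM with none called, and endothelial and mural precursors had none called. Of 6 choroid plexus and ciliated-cell precursors 3 were higher, and 1 was with upper-quartile scaling and in 5 of the 25 fits that left out 1 library. No marker of any list was at 0 in all libraries. The part of these cell types in the members' rise was not tested.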

How the data were processed

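For 25 libraries, made with the TruSeq small RNA kit per the labels' protocols, the authors deposited read counts, in whole numbers, of 1193 miRNA precursors with both arms pooled. Tools listed in the submitters' processing notes are Trimmomatic 0.36, bcl2fastq 1.8.4 and SAMtools 1.3.1-9. Not given in the sources used here are the aligner, the counting rule, the treatment of reads with several matches, strand and build. All libraries entered 1 edgeR 4.0.16 quasi-likelihood fit (R 4.3.3) with a mean per age, after filterByExpr (425 kept, 768 set aside) and TMM scaling (factors 0.952 to 1.04). P-values were adjusted over the 425 precursors for each comparison. An SE is the log2 fold change divided by the square root of F. Ratios used log2 of counts with 0.5 reads added, and correlations used log2 of scaled CPM with 0.5 CPM added. Replicates of 1 age differed by more than counting noise in all 50 pairs (chi-square per degree of freedom 19.6 to 304). The members, always named, the 33 other precursors and the marker lists were chosen with earlier results of these data known; of the 33, those called between 30 and 2 months and the 3 largest that missed were named, and for each member the 4 precursors most alike. The fit was tested on simulated counts. Alternatives covered scaling (RLE, upper quartile, library totals), filters, DESeq2 1.42.0, lane, 2 ages alone and each library left out. Sequences are from RefSeq, where all 4 members matched; plots were drawn with matplotlib 3.10.9.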

Additional observations from a re-analysis of the deposited data

Results flagged for a closer look

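Of the groups of 5 libraries examined, 25 in all, 3 held a library that stood far from the others; chance marks about 1 group in 20. At 24 months, mmu-mir-155 stood at 17.8 CPM in replicate 1, beside 6.88 to 8.87 CPM in the others. The same library was also the highest of its age for mmu-mir-146a, at 236 CPM beside 145 to 190 CPM. So it was for mmu-mir-21a, at 4430 CPM beside 3298 to 4218 CPM. Among the summed marker lists it was highest for leukocytes, at 1641 CPM beside 1196 to 1593 CPM. It was also highest for oligodendrocytes, at 3565 CPM beside 3011 to 3523 CPM, and for endothelium, at 12731.5 CPM beside 11733.6 to 12566.9 CPM. For the other marker lists it was not the highest. The part of these cells was not tested. At 15 months, mmu-mir-155 stood at 7.58 CPM in replicate 4, beside 5.09 to 5.45 CPM. At 15 months, mmu-mir-21a was lowest in replicate 3, a lane 3 library, at 3119 CPM beside 3678 to 3756 CPM.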

How the results depend on the processing

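The rises of mmu-mir-146a, mmu-mir-155 and mmu-mir-21a from 2 to 30 months, and their slopes, passed under every alternative tried in which they were tested; the stricter filter of 10 CPM in 5 libraries removed mmu-mir-155. mmu-mir-146b passed except with only 2-month replicates 3 to 5 (0.38, adjusted p = 0.0700 by edgeR) and when 1 of 3 libraries was left out. Over all 25 fits that left out 1 library, its 30-month difference ranged from 0.34 to 0.51 and its slope from 0.12 to 0.18. Without lane 3 the 4 ratio tests that had passed no longer did. The differences were 0.97 for mir-155 over mir-146b, 0.96 for mir-155 over mir-21a, 0.51 for mir-146a over mir-146b and 0.50 for mir-146a over mir-21a. With 4 libraries against 4 the smallest exact p is 0.0286, which the last 3 reached and which adjusts to 0.0571 here. For mir-155 over mir-146b the exact permutation p was 0.0857 (adjusted p = 0.129), above that floor. Leaving out 1 library, the ratio of mir-155 to mir-146b ranged from 0.74 to 1.05 and that of mir-146b to mir-21a from -0.078 to 0.084, and the latter was -0.014 without lane 3. The correlation of mir-155 with mir-146a became -0.071 without the 2 farthest libraries, and that of mir-155 with mir-21a 0.40. The other losses of Pearson's r with lane, 0.42, 0.29 and 0.20, stand beside the values above, as do those of Spearman's rho. Differences near 0 changed sign: from 9 to 15 months mmu-mir-146b gave -0.00047 with upper-quartile scaling and -0.050 to 0.12 leaving out 1 library, mmu-mir-155 -0.0096 to 0.27, and mmu-mir-21a -0.030 to 0.051, 0.0027 with no filter, 0.016 with lane as a covariate and 0.012 without lane 3. Leaving out 1 library also moved mmu-mir-146b between -0.015 and 0.12 from 9 to 24 months and between -0.081 and 0.097 from 15 to 24 months. No paired analysis was possible because replicate numbers come from accession order and link no animals across ages; lane, which does run across ages, was fitted as a covariate. That fit lost no call of the members and gave the additional calls stated above. Depth limits mmu-mir-155, with as few as 15 reads in a library.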
